A study of Mus musculus with 4 samples.

Results

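Genes of ribosome biogenesis and of RNA polymerase I were examined in mouse Beta-TC-6 cells depleted of NF45. They were chosen by name: 12 listed genes (Fbl, Dkc1, Ncl, Npm1, Rrn3, Rrs1, Ubtf, Bop1, Pes1, Wdr12, Nolc1 and Tcof1) and the genes whose symbol is Nop, Utp, Rrp, Noc or Gnl with a number, or Polr1 with a letter. This gave 47 genes of the 22180 that had a probe set with a single gene symbol, and each was represented by its brightest probe set. Of the 47, 45 reached the signal filter, a mean over all arrays at or above the median of all probe sets, and were tested among 11742 genes. Utp23 and Rrp9 did not reach it. Fbl, Rrp8 and Utp14b lay only on probe sets that carried several symbols and were not analysed here.

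Ribosomes are assembled in the nucleolus. RNA polymerase I transcribes the long ribosomal RNA precursor there, with UBTF bound along the ribosomal DNA and RRN3 linking the polymerase to the promoter. Small nucleolar ribonucleoproteins (snoRNPs) then modify the precursor, the small subunit processome folds and cleaves the part that becomes the 40S subunit, and a second set of factors matures the 60S subunit. NF45, the product of Ilf2, pairs with NF90 family proteins to bind double-stranded RNA, and in human cells this pair has been linked to 60S assembly.

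The siNF45 group (2 samples) received a mixture of RNA interference duplexes against NF45, and the siNTC group (2 samples) received a negative control siRNA. All cells were grown in medium with 25 mM glucose and 15% serum and were transfected with the same lipid reagent. Beta-TC-6 is 1 transformed beta cell line, made from a tumour of a mouse with a viral oncogene under an insulin promoter. Total RNA (250 ng) was labelled and hybridised to 1 Affymetrix Mouse Gene 2.1 ST array per sample. Nothing in the labels says that the 2 samples of a group were separate transfections, so the p-values cover only the variation among these arrays, and that may be technical.

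The labels held for the targeted gene. Ilf2 read 3.67 and 3.77 on the siNF45 arrays and 5.79 and 5.98 on the siNTC arrays (log2), a difference of -2.17 (SE 0.13, limma adjusted p = 0.020). An exact two-sided permutation test of the 4 values gave p = 0.333, below which this design cannot go. Across probe sets, which are not independent, the siNF45 replicates correlated at 0.975, the siNTC replicates at 0.982 and arrays of different groups at 0.970 to 0.979. Of 13 beta cell markers 12 reached the signal filter, and the 13 averaged 6.59 on both siNF45 arrays and 6.66 and 6.55 on the siNTC arrays. Ins1 had no probe set with a single symbol. The 12 ranged from -0.44 (Pcsk1) to 0.24 (Isl1), both with groups that did not overlap, and 7 were below 0 and 5 above. The 8 markers of exocrine and duct cells averaged 1.64 and 1.62 in siNF45 and 1.55 and 1.5 in siNTC, and the 1 above the filter, Krt7, differed by 0.67. The 11 markers of endothelial, immune and mesenchymal cells (3 above the filter) averaged 1.41 and 1.43 in siNF45 and 1.48 and 1.5 in siNTC. Markers of other islet cells (5 of 7 above the filter) averaged 3.64 and 3.49 in siNF45 and 3.76 on both siNTC arrays. The 5 differed by -0.89 (somatostatin, Sst), -0.55 (Irx1), -0.39 (Irx2), -0.02 (Gcg) and 0.52 (Ppy). None of these markers passed in the fit as designed, Krt7 did after centring and Sst did with a trend in eBayes, and the part of these cells in the results was not tested.

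No ribosome biogenesis gene passed the test, and the set as a whole lay where other genes lay. At a limma adjusted p under 0.05, 0 of 45 were called, against 0.0852% of all tested genes, and under 0.10 also 0 of 45, against 1.62%. At an unadjusted p under 0.05, 5 of 45 (11.1%) were lower in siNF45, against 13.2% of all tested genes, and 1 of 45 (2.22%) was higher, against 4.02%. Both shares were near the background, so the counts are no result about the set. The median difference, siNF45 minus siNTC, was -0.07 for the 45 genes and -0.07 for all tested genes. Differences below 0 were found for 28 of the 45 (62.2%), against 61.3% of all tested genes, and above 0 for 15 (33.3%), against 37.8%. The siNF45 arrays were both below both siNTC arrays for 15 genes (33.3%, against 32.6% of all tested genes) and both above for 3 (6.67%, against 15.2%). Scaling of the arrays bears on these signs. The median level over tested genes was 3.72 and 3.60 for siNF45 and 3.82 and 3.76 for siNTC. After each array was centred on that median, the 45 genes and all tested genes both had a median of 0.07, and 17 of the 45 were below 0. After quantile normalization 24 were below 0.

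**Figure D1:**
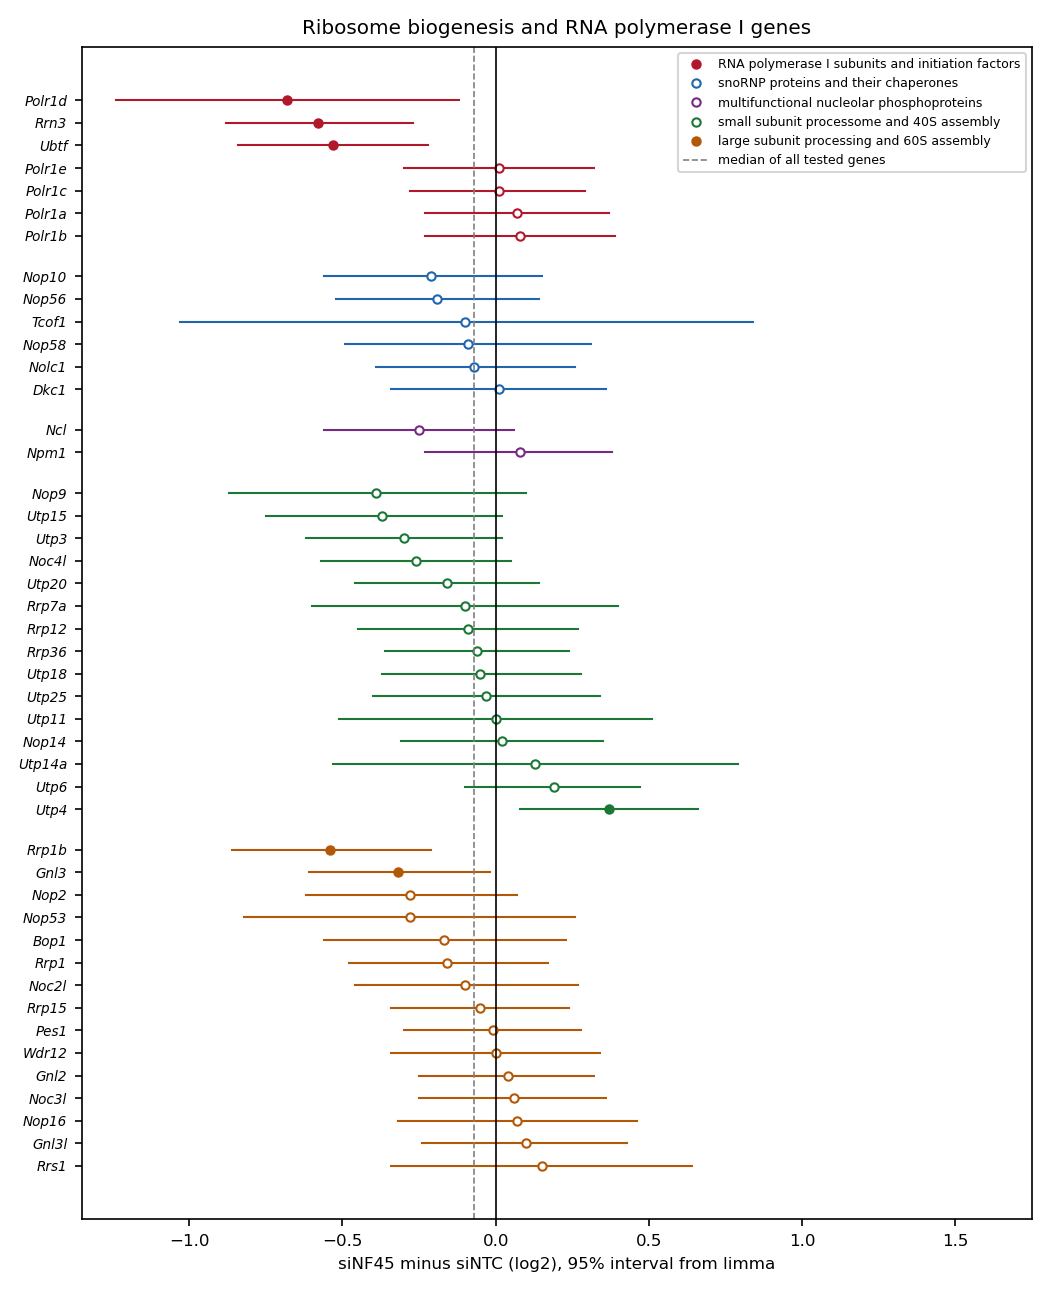
Difference between siNF45 and siNTC (log2, x axis) for the 45 tested genes, grouped by role, with 95% intervals from limma; filled points have an unadjusted p under 0.05, open points do not, and the dashed line is the median of all tested genes (-0.07). Rrn3, Ubtf and Polr1d lie to the left at -0.58, -0.53 and -0.68, Utp4 lies to the right at 0.37, and most intervals cross 0.

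The 6 genes at an unadjusted p under 0.05 were the polymerase I factors Rrn3, Ubtf and Polr1d, the 60S factors Rrp1b and Gnl3, and the 40S factor Utp4. Rrn3 (the initiation factor TIF-IA) read 4.47 and 4.31 in siNF45 and 4.98 and 4.95 in siNTC. Both siNF45 arrays were lower, by 0.58 on average, which is several times the gap within either group. The limma difference was -0.58 (SE 0.12, 95% interval -0.88 to -0.27) with a limma adjusted p of 0.132, which puts the level at 0.671 times that of siNTC. Ubtf, the upstream binding factor, read 5.35 and 5.32 in siNF45 and 5.94 and 5.79 in siNTC. Here too both siNF45 arrays were lower and the groups did not overlap, with a difference of -0.53 (SE 0.12, limma adjusted p = 0.143). In bulk RNA, fewer cells that express a gene and less RNA per cell cannot be told apart.

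The promoters of 3 of these 6 genes are shown, Rrn3 and Gnl3 as lower genes and Utp4 as the higher one, each with a single window in the RefSeq table. The windows are from GRCm38.p6 and run from 250 bases before to 50 bases after the start, 5′ to 3′ on the gene's strand. Rrn3 lies at chr16:13780449-13780748, plus strand, Gnl3 at chr14:31019082-31019381, minus strand and Utp4 at chr8:106893390-106893689, plus strand. Capitals mark CACGTG, the E-box that MYC and MAX can bind, and CCGGAAG, the core of ETS factor motifs, which reads CTTCCGG on the other strand.
Rrn3: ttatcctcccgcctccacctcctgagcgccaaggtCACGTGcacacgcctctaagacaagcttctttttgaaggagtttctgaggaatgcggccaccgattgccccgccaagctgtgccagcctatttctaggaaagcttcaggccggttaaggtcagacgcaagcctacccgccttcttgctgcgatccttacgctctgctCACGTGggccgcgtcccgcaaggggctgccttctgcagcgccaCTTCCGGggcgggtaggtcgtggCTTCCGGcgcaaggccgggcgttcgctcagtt
Gnl3: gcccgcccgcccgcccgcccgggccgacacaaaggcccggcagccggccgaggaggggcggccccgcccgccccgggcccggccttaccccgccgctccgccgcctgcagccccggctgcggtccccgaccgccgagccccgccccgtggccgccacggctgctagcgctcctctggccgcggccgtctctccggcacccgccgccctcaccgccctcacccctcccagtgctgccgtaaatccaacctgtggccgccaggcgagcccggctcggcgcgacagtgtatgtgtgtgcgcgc
Utp4: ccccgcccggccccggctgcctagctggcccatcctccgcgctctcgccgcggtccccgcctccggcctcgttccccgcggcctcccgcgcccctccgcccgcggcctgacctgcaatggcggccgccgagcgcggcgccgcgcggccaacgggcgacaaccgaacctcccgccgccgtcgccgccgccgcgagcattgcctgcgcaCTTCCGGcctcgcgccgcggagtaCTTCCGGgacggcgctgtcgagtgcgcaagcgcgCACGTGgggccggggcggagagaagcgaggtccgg
The Rrn3 window held 2 E-boxes and 2 ETS cores, and the Utp4 window held 1 E-box and 2 ETS cores. Rrn3 differed by -0.58 and Utp4 by 0.37, and a link between motifs and differences was not tested. The Gnl3 window held neither, which says only that these letters are not in it. All 3 windows were rich in CpG dinucleotides, with 25 in Rrn3, 44 in Gnl3 and 56 in Utp4. Ubtf, Polr1d and Rrp1b, whose promoters are not shown, were not among the genes of the set found with either motif. Polr1d, at -0.68, was among the genes with a promoter entry and neither motif. As for Ubtf and Rrp1b, genes without a promoter entry could not be among those found.

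Over the whole set, 36 of the 47 genes matched the promoter table, with 48 windows. On either strand, an E-box was found in 10 of the 48 windows (20.8%), against 9.97% of windows of all tested genes and 7.15% of all windows in the table. The ETS core was in 14 windows (29.2%), against 17.0% for tested genes and 8.86% for all. CCAAT was in 29.2% of the windows, against 38.1% for tested genes and 37.4% for all, and TATAAA in 6.25%, against 7.51% for tested genes and 13.6% for all. Windows of the set held a median of 21 CpG dinucleotides, against 20 for tested genes and 7 for all. These shares are a description, and a motif match is not a binding site. The 8 tested genes with an E-box (Rrn3, Nop2, Pes1, Utp4, Utp20, Rrp7a, Utp18 and Utp25) had a median difference of -0.08, and the 27 tested genes with a promoter but no E-box had a median of -0.09. For the ETS core the medians were -0.06 over 12 genes with it and -0.16 over 23 without. Myc itself, a known activator of ribosome biogenesis genes, read 2.70 and 2.85 in siNF45 and 3.21 and 2.96 in siNTC, a difference of -0.31 (SE 0.14, limma adjusted p = 0.345).

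Among the 7 RNA polymerase I genes of the set, low values were found for the initiation factors Rrn3 and Ubtf and for 1 subunit. The other subunits of the set lay within 0.08 of 0. The median of the 7 genes was 0.01. With the filter at the 70th percentile the dim subunits Polr1b and Polr1e dropped out, and the median of the remaining 5 was the value of Ubtf, -0.53. At an unadjusted p under 0.05 in limma, 3 of the 7 were lower (42.9%, against 13.2% of all tested genes), and the list was not tested. Polr1d, a small subunit that polymerases I and III share, read 3.09 and 3.12 in siNF45 and 4.11 and 3.46 in siNTC. The groups did not overlap, but the siNTC arrays differed from each other by almost as much as the groups did. Its difference was -0.68 (SE 0.22, limma adjusted p = 0.226), and -0.36 without siNTC replicate 1. Polr1a, the largest catalytic subunit, read 4.11 and 4.0 in siNF45 and 3.95 and 4.02 in siNTC, so the groups overlapped. Its difference was 0.07 (95% interval -0.23 to 0.37). Polr1b, the second catalytic subunit, differed by 0.08 (-0.23 to 0.39), at a mean signal equal to the filter of 1.65. Polr1c, also shared with polymerase III, differed by 0.01 (-0.28 to 0.29), and Polr1e by 0.01 (-0.30 to 0.32). Further subunits that the platform lists under older names gave like values, with Twistnb at 0.02, Znrd1 at -0.03 and Cd3eap at -0.07. Whether Rrn3 and Ubtf differ from the subunits was not tested.

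**Figure D2:**
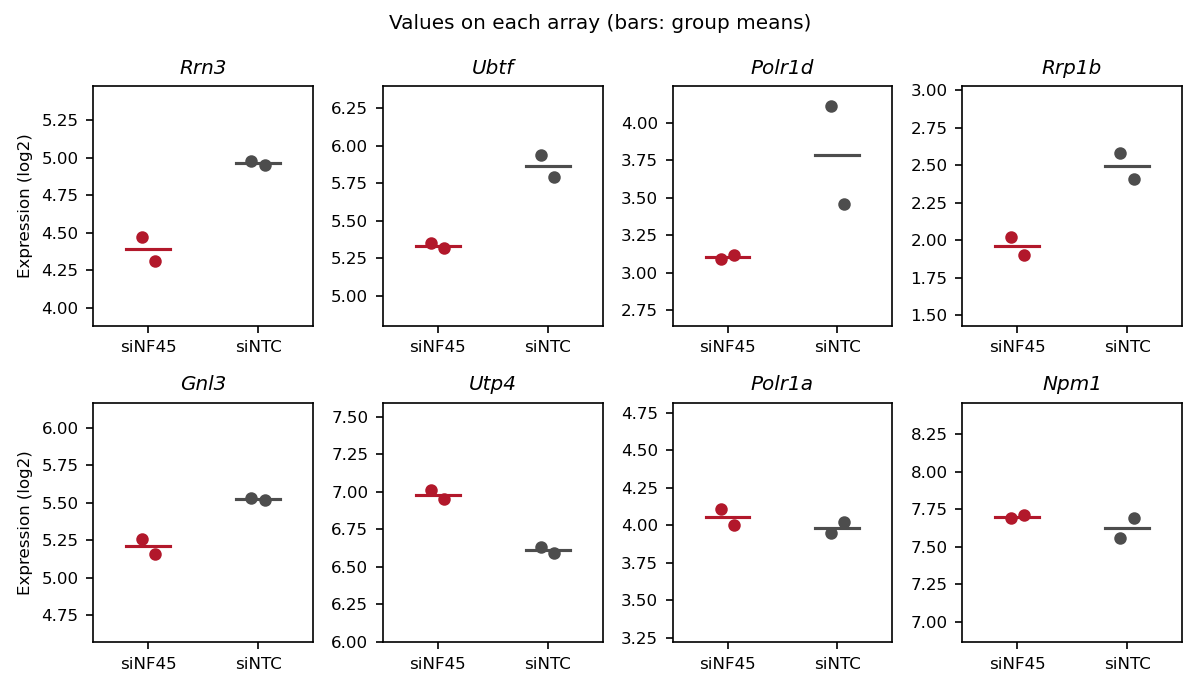
Log2 expression on each array (y axis, the same span in all panels) for the 6 genes at an unadjusted p under 0.05 and for Polr1a and Npm1, with siNF45 at the left and siNTC at the right; points are single arrays and bars group means. In the first 6 panels the groups do not overlap, and the siNTC points of Polr1d, at 4.11 and 3.46, are far apart.

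Other polymerase I factors went both ways. Of 10 tested genes, 5 were below 0 and 5 above, with a median of -0.01, and none passed. Taf1c, a subunit of the promoter selectivity factor SL1, read 2.57 and 2.50 in siNF45 and 2.92 and 3.06 in siNTC, a difference of -0.46 (SE 0.12, limma adjusted p = 0.174). Ttf1, the transcription termination factor, was higher on both siNF45 arrays, at 2.70 and 2.60, against 2.33 and 2.15 in siNTC, a difference of 0.41 (SE 0.13). Mybbp1a, a MYB-binding nucleolar protein, differed by -0.33. Among 10 regulators of ribosomal DNA transcription the median was -0.03, with the histone demethylase Phf8 at 0.34 and the deacetylase Sirt7 at -0.25. For comparison, 11 subunits of RNA polymerase II had a median of -0.10, with Polr2m at -0.39, Polr2b at 0.26 and Polr2d at 0.33. This list was not separate from polymerase I. Polr2e (-0.15), Polr2f (-0.36) and Polr2k (-0.15) in it encode subunits that polymerases I, II and III share. The 9 subunits of polymerase III other than the shared ones had a median of -0.11, with Polr3g at -0.46, Polr3k at -0.25 and Polr3d at -0.26. None of these genes passed at the adjusted threshold.

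The snoRNP genes showed little difference. Of the 6, 5 were below 0 (83.3%, against 61.3% of all tested genes) and 2 after centring, with a range of -0.21 to 0.01. The siNF45 arrays were both lower for 2 (33.3%, against 32.6%). Nop10, a small protein of the H/ACA particles that make pseudouridine, read 6.86 and 6.91 in siNF45 and 7.23 and 6.95 in siNTC, so the lower siNTC array was close to the siNF45 arrays. Its difference was -0.21 (95% interval -0.56 to 0.15), and that of its partner Dkc1, the pseudouridine synthase, was 0.01 (-0.34 to 0.36). Nop56, a core protein of the box C/D particles that guide methylation, read 6.25 and 6.14 in siNF45 and 6.29 and 6.48 in siNTC, a difference of -0.19 (-0.52 to 0.14). Its other probe sets had the opposite sign, at 0.13 and 0.11, but were dimmer. Their mean signals were 3.14 and 1.39, the second below the filter of 1.65, against 6.29 for the probe set used. Nop58, its partner, differed by -0.09 and the snoRNP chaperone Nolc1 by -0.07. Tcof1, which encodes treacle, a partner of UBTF, read 2.59 and 2.12 in siNF45 and 3.01 and 1.89 in siNTC. These arrays disagreed within both groups, and the interval, -1.03 to 0.84, was the widest among the 45 genes.

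The other snoRNP and assembly factors had a median of -0.21 over 12 genes, of which 11 were below 0 (91.7%, against 61.3% of all tested genes; 8 after centring) and none passed. Relative to the median of all tested genes this was -0.14, and -0.11 after quantile normalization, and no test of the list was made. Without siNF45 replicate 1 the median was -0.34, and without siNF45 replicate 2 it was -0.10. Znhit6, which helps to build box C/D particles, read 3.30 and 3.43 in siNF45 and 3.97 and 3.89 in siNTC, a difference of -0.57 (SE 0.12, limma adjusted p = 0.132). Gar1, an H/ACA core protein, read 2.57 and 2.14 in siNF45 and 3.25 and 2.67 in siNTC, a difference of -0.61 (SE 0.24, limma adjusted p = 0.289). Nhp2, the remaining H/ACA core protein, differed by -0.24.

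The genes of the abundant nucleolar proteins nucleolin and nucleophosmin differed by -0.25 and 0.08, and neither passed. Ncl read 7.29 and 7.22 in siNF45 and 7.44 and 7.57 in siNTC, a difference of -0.25 (95% interval -0.56 to 0.06), with both siNF45 arrays below both siNTC arrays. Npm1 read 7.69 and 7.71 in siNF45 and 7.56 and 7.69 in siNTC, a difference of 0.08 (-0.23 to 0.38). Its dimmer probe set gave 0.23. Npm1 has many processed pseudogenes, and signal from these was not separated.

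The genes of the small subunit processome and 40S assembly spread on both sides of 0. Of 15 tested, 10 were below 0, 4 above and 1 at 0, with a median of -0.06, or 0.03 after quantile normalization and 0.07 after centring. Utp4 (cirhin), of the UtpA complex that binds the precursor early, read 7.01 and 6.95 in siNF45 and 6.63 and 6.59 in siNTC. Both siNF45 arrays were higher, and replicates lay close together. The difference was 0.37 (SE 0.12, 95% interval 0.08 to 0.66) with a limma adjusted p of 0.215, which puts the level at 1.29 times that of siNTC. Utp15, another UtpA protein, was on the other side, at 4.81 and 4.54 in siNF45 and 4.93 and 5.15 in siNTC, a difference of -0.37 (SE 0.15, limma adjusted p = 0.307). Whether these 2 proteins of one complex differ from each other was not tested.

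The other processome genes had smaller or less even differences. Nop9, an RNA-binding protein of 40S assembly, differed by -0.39 with 2.55 and 2.04 in siNF45 and 2.75 and 2.61 in siNTC, and Utp3 by -0.30. Noc4l differed by -0.26, and Nop14, with which its yeast counterpart forms a complex, by 0.02. Utp6 was higher on both siNF45 arrays, at 4.54 and 4.52, against 4.37 and 4.32 in siNTC, a difference of 0.19. Utp18, which in yeast joins Utp6 in the UtpB complex, differed by -0.05. Utp20 differed by -0.16, and 6 more genes (Rrp7a, Rrp12, Rrp36, Utp25, Utp11 and Utp14a) lay between -0.10 and 0.13. Below the signal filter, Rrp9, a U3 snoRNA-binding protein, read 1.57 and 1.38 in siNF45 and 1.70 and 1.83 in siNTC, and Utp23 read 1.27 and 1.56 in siNF45 and 1.40 and 1.49 in siNTC. Among 37 further 40S assembly factors the median was 0.03, and none passed. Those with the smallest p were Wdr3 at -0.48, Ngdn at 0.30 and Pdcd11 at -0.41.

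Among genes of 60S assembly, Rrp1b and Gnl3 were lower and their paralogues lay nearer to 0. Rrp1b read 2.02 and 1.90 in siNF45 and 2.58 and 2.41 in siNTC, a low signal on all arrays. The groups did not overlap, and the difference was -0.54 (SE 0.13, 95% interval -0.86 to -0.21, limma adjusted p = 0.149). Its paralogue Rrp1 read 6.60 and 6.44 in siNF45 and 6.74 and 6.61 in siNTC, a difference of -0.16 (-0.48 to 0.17). Gnl3, which encodes the nucleolar GTPase nucleostemin, read 5.26 and 5.16 in siNF45 and 5.53 and 5.52 in siNTC, a difference of -0.32 (SE 0.12, limma adjusted p = 0.266), or -0.19 after centring. Its paralogue Gnl3l read 6.69 and 6.46 in siNF45 and 6.51 and 6.45 in siNTC, so the groups overlapped, with a difference of 0.10 (-0.24 to 0.43). The intervals of both pairs overlap, and the difference within a pair was not tested.

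The PeBoW complex, which is needed for processing of the 60S precursor, was nearly level. Pes1 read 5.26 and 5.36 in siNF45 and 5.32 on both siNTC arrays, a difference of -0.01 (95% interval -0.30 to 0.28). Wdr12 differed by 0.00 (-0.34 to 0.34) and Bop1 by -0.17 (-0.56 to 0.23). Nop2, a methyltransferase of ribosomal RNA, differed by -0.28 with groups that did not overlap, and Nop53 by -0.28 with groups that did. The remaining tested genes, Noc2l, Noc3l, Gnl2, Nop16, Rrp15 and Rrs1, lay between -0.10 and 0.15. The 2 probe sets of Rrs1 had opposite signs, at 0.15 and -0.21. Over the 15 genes of this role the median was -0.05, or 0.08 after centring, with 9 below 0 and 5 above.

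Genes of 60S assembly outside the set held the widest differences in the pathway. Pelp1, of a complex that acts in late nuclear 60S maturation and is also a nuclear receptor coactivator, read 4.52 and 4.17 in siNF45 and 5.01 and 5.30 in siNTC. Both siNF45 arrays were clearly lower, by 0.81 on average (SE 0.18, 95% interval of the difference -1.25 to -0.37, limma adjusted p = 0.132). Rpf2, whose yeast counterpart works with Rrs1 to bring the 5S particle into the precursor, read 5.39 and 5.06 in siNF45 and 4.37 and 4.86 in siNTC, a difference of 0.61 (SE 0.21, limma adjusted p = 0.237). Rpf2 was picked out after its value was seen. Sdad1 differed by -0.41 and Wdr74 by -0.36. Over 42 such genes the median was -0.01, with 23 below 0 and 18 above, and at an unadjusted p under 0.05 4 were lower (9.52%, against 13.2% of all tested genes) and 1 higher (2.38%, against 4.02%). The 15 genes of the RNA exosome and precursor trimming had a median of 0.06, with 10 above 0 and 5 below (33.3%, against 61.3% of all tested genes). Their median was -0.02 without siNF45 replicate 1 and 0.13 without siNF45 replicate 2, and the list was not tested. Relative to the median of all tested genes, the list was at 0.12 as designed. In the fits without siNF45 replicate 1 and without siNF45 replicate 2 this was 0.09 and 0.17. Those with the smallest p were Exosc2 at -0.41, the nuclease Exosc10 at -0.36 and the cofactor Mphosph6 at 0.23. None of these genes passed at the adjusted threshold.

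**Figure D3:**
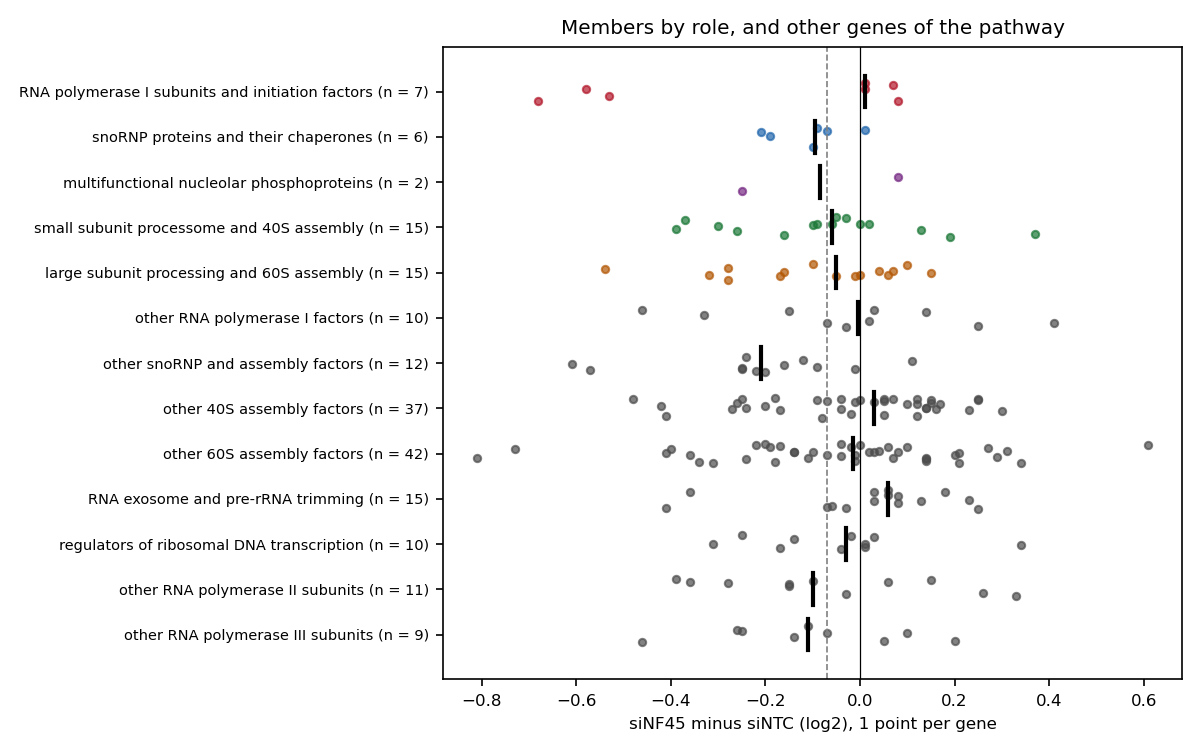
Difference between siNF45 and siNTC (log2, x axis) for the tested genes of the set by role (coloured, top 5 rows) and for other genes of the pathway and the subunits of polymerases II and III (grey); each point is a gene, black bars are medians and the dashed line is the median of all tested genes. Medians run from -0.21 for the other snoRNP factors to 0.06 for the exosome, and the points of most rows lie on both sides of 0.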

How the data were processed

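The authors deposited log2 values, 1 for each probe set on each array, made with Transcriptome Analysis Console per the submitters' processing notes. Neither its version nor the summarisation, background correction or log base is given in the sources used here. Values ran from 0.12 to 12.21 and were taken as log2, on which every fold rests. Array medians were 1.66 and 1.66 for siNF45 and 1.64 and 1.64 for siNTC, genes were not centred, and direction comes from the sample labels. The number of arrays limits the precision.

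Of 41345 probe sets, 23521 carried 1 symbol in the platform annotation, 1814 carried several and 16010 were unnamed here. All 47 genes were found by gene number in the RefSeq table of GRCm38.p6, with no change of symbol. Noct, whose symbol is Noc and a letter, is no ribosome factor and was left out. Probe sets had to reach 1.65, the median of all probe sets. limma 3.58.1 in R 4.3.3 (lmFit, eBayes, no covariate) compared the groups, with 2 residual and 3.69 prior degrees of freedom and Benjamini-Hochberg adjustment over 11742 genes. The fit was run on simulated data whose changes were larger than any difference in the set. That run does not show whether smaller differences would be found. Lists were described by counts and medians without a test. The genes and lists were chosen with earlier results of these data known. Values on every array are given by rule for genes at an unadjusted p under 0.05, for the 2 genes with the smallest p of each role and for paralogue pairs, and in addition for Polr1a, Tcof1, Utp6, Pes1, Nop9 and the genes below the filter, which were chosen after their values were seen. From each pathway and comparison list the 3 genes with the smallest p are named, and Ilf2 and Myc always. The polymerase I subunits under older names, and Polr2e, Polr2f and Polr2k, were chosen after their values were seen. The groups share replicate numbers, which the labels do not tie to a common batch or day, so samples were left unpaired. Alternatives were other filters, quantile normalization, centring, a trend in eBayes, robust eBayes, the replicate block, averaging a gene's probe sets and leaving out each array.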

Additional observations from a re-analysis of the deposited data

How the results depend on the processing

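In every alternative run, 0 genes of the set passed at a limma adjusted p under 0.05, and none did under 0.10 as designed. The lowest limma adjusted p was 0.0633, for Ubtf with a trend in eBayes. Also under 0.10 in that run were Rrn3 (0.0786) and Utp4 (0.0806). With the filter at the 70th percentile, Rrn3 (0.0894) and Ubtf (0.0989) were under 0.10. Rrn3, Ubtf and Rrp1b were lower at an unadjusted p under 0.05 wherever they were tested, while Rrp1b did not reach the filter at the 70th percentile. Leaving out each array gave 3 to 6 lower and 0 to 1 higher genes of the set, with medians of -0.11 to -0.03. Utp4 passed an unadjusted p of 0.05 in 1 of these 4 fits, without siNF45 replicate 2. Centring gave a median of 0.07 and 2 higher genes, Utp4 and Utp6. A trend in eBayes gave 7 lower genes, with Ncl and Utp15 among them. The 12 listed genes alone gave 2 lower and 0 higher. Noct did not reach the signal filter, so adding it could not move the counts. Gnl3 was at an unadjusted p of 0.0693 after quantile normalization, 0.21 after centring (at -0.19), 0.0527 with the replicate block and 0.0574 to 0.12 without 1 array. Of 155 alternative values of 13 genes, 153 kept their direction: Nop56 was 0.02 with probe sets averaged, and Gnl3l ranged from -0.02 to 0.21 without 1 array. Among the 32 other tested genes, 41 of 376 values changed sign.

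Over all genes, 10 were called as designed, 172 after centring, 174 with a trend, 62 after quantile normalization, 87 with the filter at the 70th percentile, and 0 in each fit without 1 array, where a lone array is given the spread of the other group. The replicate block called 0 genes, with Ilf2 at -2.17 (limma adjusted p = 0.258), and Ilf2 ranged from -2.26 to -2.07 without 1 array (0.307 to 0.471). Deviations of same-numbered arrays correlated at 0.0062 over genes, which cannot settle pairing with 2 arrays per group. Detection calls were not used, so values near the filter, such as those of Rrp1b and Polr1b, may be close to background.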
